A study of Mus musculus with 12 samples.

Results

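The CHOP arm of the integrated stress response was followed here through 4 genes, Ddit3, Trib3, Chac1 and Nupr1, out of 55536 mouse gene IDs counted in each library. They were taken by symbol, and the choice was made with earlier results of these data known. The cells were MEF, fibroblasts cultured from mouse embryos, exposed to halofuginone (HF) at 100 nM for 6 h or left as controls, and both conditions were in medium with dialyzed serum. HF is known to block prolyl-tRNA charging by the synthetase EPRS. Sequencing covered total RNA and ribosome footprints (RPF, the mRNA fragments that ribosomes protect from nuclease), in 3 libraries per condition and assay. The 4 groups were therefore RNA of HF cells, RNA of control cells, footprints of HF cells and footprints of control cells. The labels name no strain, genotype or passage of the MEF. Whether each library had a culture of its own is not stated either, so the p-values cover variation among these libraries alone, and that variation may be technical.

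When uncharged tRNA or another stress activates an eIF2 kinase such as GCN2, phosphorylated eIF2 lowers general initiation while a few mRNAs with upstream open reading frames (uORFs) gain translation, Atf4 first among them. ATF4 then raises transcription of Ddit3, which encodes CHOP, a bZIP transcription factor that pairs with C/EBP proteins and whose own mRNA also carries an inhibitory uORF. CHOP and ATF4 together are known to drive Trib3, a pseudokinase that binds AKT and ATF4, and Chac1, an enzyme that cleaves glutathione. Nupr1 encodes a small disordered chromatin-associated stress protein and is likewise known as a target of ATF4.

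Library totals ran from 562794 to 2527791 counts. Of 10 fibroblast markers 9 had counts in every group and Postn had none, and the summed level of the 10 was 9360 to 9680 CPM in RNA of HF cells and 7790 to 8150 CPM in RNA of control cells. In footprints that sum was 12400 to 12700 CPM in HF cells and 16000 to 16900 CPM in control cells. Of the 7 fibroblast markers tested in RNA, the fibronectin gene Fn1 rose (1.69) and 4 fell, which were Pdgfrb (-2.30), S100a4 (-1.23), Col1a1 (-0.93) and Col1a2 (-0.68). Over all genes tested in RNA, 22.2% were called higher with HF and 21.4% lower. Of the 8 fibroblast markers tested in footprints, 2 rose and 5 fell, where 22.4% of all genes were called higher and 20.9% lower. Without Fn1 the RNA sum was 4520 to 4680 CPM in HF cells and 6260 to 6600 CPM in control cells. Of 12 markers of other cell types, Alb, Krt8, Pecam1 and Pou5f1 had 0 counts over the 12 libraries, 7 others had 1 to 14, and the tubulin gene Tubb3 had 630. The summed level of those 12 was 13.8 to 29.0 CPM in RNA of HF cells and 16.8 to 41.1 CPM in RNA of control cells. In footprints it was 25.1 to 60.7 CPM in HF cells and 59.0 to 87.0 CPM in control cells. Their part in the results was not tested.

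ATF4 and CHOP act at short promoter elements, so the 250 bases before the annotated start of each gene are shown, as RefSeq gives them for GRCm38.p6. Capitals mark matches to the C/EBP-ATF response element (CARE, TGATGCAA) and to the related C/EBP-CRE element (TGACGCAA), searched on both strands, so a match can read TTGCATCA.
Ddit3, chr10:127290543-127290792, plus strand: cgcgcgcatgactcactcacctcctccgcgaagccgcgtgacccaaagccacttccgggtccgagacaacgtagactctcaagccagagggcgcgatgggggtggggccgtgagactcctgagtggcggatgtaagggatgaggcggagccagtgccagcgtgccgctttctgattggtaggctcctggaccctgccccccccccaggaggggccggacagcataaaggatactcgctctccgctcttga
Trib3, chr2:152344061-152344310, minus strand: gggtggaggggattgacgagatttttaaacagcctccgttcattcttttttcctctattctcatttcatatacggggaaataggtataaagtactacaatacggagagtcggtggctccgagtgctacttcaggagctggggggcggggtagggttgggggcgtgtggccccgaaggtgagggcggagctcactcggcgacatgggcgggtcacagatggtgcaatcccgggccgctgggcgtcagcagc
Chac1, chr2:119350992-119351241, plus strand: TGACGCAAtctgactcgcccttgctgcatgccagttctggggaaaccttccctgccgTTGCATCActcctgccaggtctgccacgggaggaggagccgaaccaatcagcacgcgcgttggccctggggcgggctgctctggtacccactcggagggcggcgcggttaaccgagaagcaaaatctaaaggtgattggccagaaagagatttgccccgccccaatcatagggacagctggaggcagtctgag
Nupr1, chr7:126625471-126625720, minus strand: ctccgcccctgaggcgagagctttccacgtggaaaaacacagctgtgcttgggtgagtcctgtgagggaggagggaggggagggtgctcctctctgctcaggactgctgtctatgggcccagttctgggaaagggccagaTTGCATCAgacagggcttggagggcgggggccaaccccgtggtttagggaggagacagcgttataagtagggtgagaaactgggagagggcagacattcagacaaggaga

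Chac1 and Nupr1 each held a CARE match, as did 260 of the 32851 RefSeq promoter windows searched (0.791%). The Chac1 match began at position -193 from the gene start and the Nupr1 match at -110. Chac1 also held the C/EBP-CRE letters, at -250, which 0.438% of windows held. Neither element was in the windows of Ddit3 or Trib3. The AP-1 element TGANTCA was in the Ddit3 window at -242 and in 6.75% of all windows, and the endoplasmic reticulum stress element (ERSE) was in none of the 4 and in 0.113% of all. None of these elements overlapped another in the 4 windows. A match is a string of letters and not a measured binding site, and sites farther upstream or inside the genes were not searched.

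**Figure D1:**
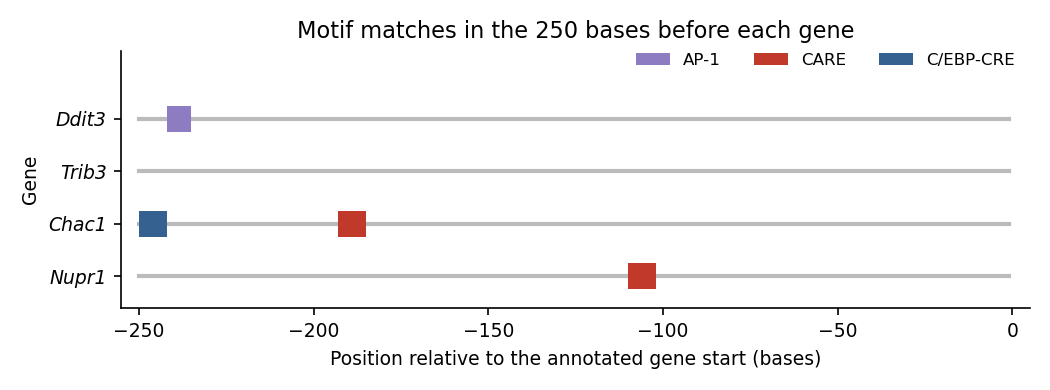
Matches to 3 promoter elements (coloured blocks) in the 250 bases before each of the 4 genes, by position relative to the annotated gene start in bases. Chac1 and Nupr1 held CARE matches, at -193 and -110, and the Trib3 window held none of the elements.

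All 4 transcripts were higher after HF in every library. Each also gained footprints, and for Ddit3, Chac1 and Nupr1 the fitted gain in footprints was larger than that in RNA. That difference passed the test for Ddit3 alone and was sensitive to single libraries. Levels are given as CPM (library-scaled counts, with TMM factors) and are not compared between genes, since transcript lengths were not used. CPM values of RNA and of footprints have separate scales. In these bulk samples, more cells expressing a gene and more RNA per cell cannot be told apart.

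In RNA, 22.2% of the genes tested were called higher with HF, and in 25.9% all HF libraries lay above all control libraries. In footprints these shares were 22.4% and 25.2%. Calls in either direction made up 43.7% of genes in RNA and 43.3% in footprints. All 4 genes were in both classes in both assays, and the median log2 fold change over the 4 was 3.23 in RNA and 3.62 in footprints, beside -0.02 over all genes tested in each assay.

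Ddit3 (ENSMUSG00000025408, chromosome 10 from 127290793 to 127296291) had 60.7, 59.9 and 68.9 CPM in RNA of HF cells and 8.05, 5.64 and 4.20 CPM in RNA of control cells. The lowest HF library was thus far above the highest control library, and the means were 63.2 ± 4.96 CPM in HF cells and 5.96 ± 1.95 CPM in control cells (SD, n = 3 each). The fitted log2 fold change was 3.34 (SE 0.37, edgeR adjusted p = 7.0e-12), and it was 44th from the top of the 9145 genes tested in RNA. A further ID with the symbol Ddit3, ENSMUSG00000116429, had 0 counts in all 12 libraries, and the handling of reads shared by both IDs is not stated.

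Ddit3 footprints were at 147, 134 and 161 CPM in HF cells and 5.68, 4.90 and 2.81 CPM in control cells. Both assays thus separated the conditions without overlap, and among footprints the control libraries lay close to the limit of counting, with 14, 8 and 2 counts. Mean footprint levels were 147.5 ± 13.7 CPM in HF cells and 4.46 ± 1.48 CPM in control cells (SD, n = 3 each). The fitted change was 4.87 (SE 0.28, edgeR adjusted p = 1.4e-15), a 29.3-fold rise and 18th from the top of 8375 protein-coding genes. Footprints on the Ddit3 uORF may be part of its count, because the counted region is not stated.

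Trib3 (ENSMUSG00000032715, chromosome 2 from 152337425 to 152344060) had 103, 154 and 98.9 CPM in RNA of HF cells and 9.66, 11.3 and 10.5 CPM in RNA of control cells. The HF libraries were spread more widely than the tight control libraries, the second HF library being the high one. The means were 118.7 ± 30.9 CPM in HF cells and 10.5 ± 0.808 CPM in control cells (SD, n = 3 each). Its fitted RNA change was 3.49 (SE 0.28, edgeR adjusted p = 7.2e-17). Trib3 footprints were at 96.8, 104 and 148 CPM in HF cells and 12.2, 6.74 and 15.4 CPM in control cells, again without overlap. Here the third HF library was the high one, and the means were 116.1 ± 27.7 CPM in HF cells and 11.4 ± 4.40 CPM in control cells (SD, n = 3 each). The footprint change was 3.38 (SE 0.29, edgeR adjusted p = 1.9e-11), close to that of its RNA.

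Chac1 (ENSMUSG00000027313, chromosome 2 from 119351242 to 119354326) had the most counts of the 4 genes, 1655 over the 12 libraries. Its RNA was at 223, 188 and 185 CPM in HF cells and 18.5, 35.2 and 17.9 CPM in control cells. The second control library was the highest of the controls, and all HF libraries lay above it. The means were 198.6 ± 21.5 CPM in HF cells and 23.9 ± 9.85 CPM in control cells (SD, n = 3 each). The RNA change was 3.12 (SE 0.21, edgeR adjusted p = 2.1e-20). Chac1 footprints were at 221, 281 and 343 CPM in HF cells and 19.9, 11.0 and 30.9 CPM in control cells. They averaged 281.8 ± 61.0 CPM in HF cells and 20.6 ± 9.96 CPM in control cells (SD, n = 3 each), again without overlap. The fitted rise was 14.6-fold in footprints (log2 3.87, SE 0.23, edgeR adjusted p = 3.7e-15) and 8.70-fold in RNA.

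Nupr1 (ENSMUSG00000030717, chromosome 7 from 126623246 to 126625470) had the smallest fitted rise of the 4 in both assays. Its RNA was at 75.6, 61.9 and 46.5 CPM in HF cells and 12.1, 25.4 and 11.6 CPM in control cells. As for Chac1, the second control library was the high one. The means were 61.4 ± 14.6 CPM in HF cells and 16.3 ± 7.83 CPM in control cells (SD, n = 3 each). The RNA change was 1.96 (SE 0.32, edgeR adjusted p = 6.4e-07), 224th from the top of 9145 genes. Nupr1 footprints were at 188, 229 and 247 CPM in HF cells and 27.6, 30.0 and 26.7 CPM in control cells, so the controls lay within a few CPM of each other. They averaged 221.2 ± 30.1 CPM in HF cells and 28.1 ± 1.73 CPM in control cells (SD, n = 3 each). The footprint change was 2.94 (SE 0.19, edgeR adjusted p = 3.0e-14), 68th from the top of 8375 genes.

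**Figure D2:**
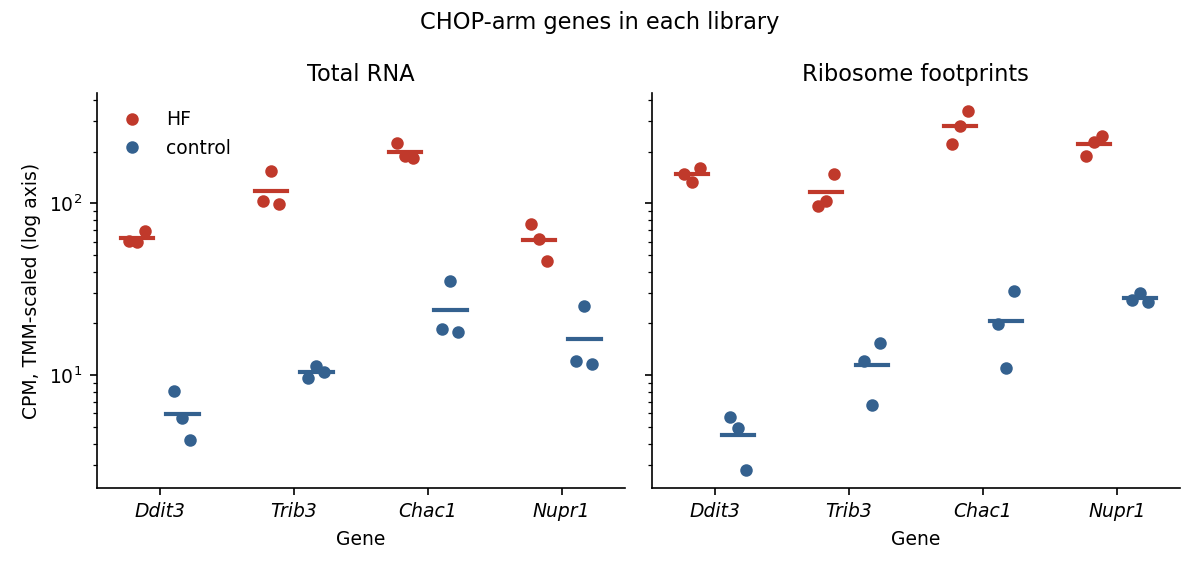
TMM-scaled CPM (log axis) of the 4 genes in total RNA (left) and ribosome footprints (right), with 1 point per library and a bar at the mean of 3 libraries, HF left of control. No HF library overlaps a control library in any of the 8 comparisons.

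The change in translational efficiency (TE, the ratio of footprints to RNA) asks whether ribosome occupancy moved beyond the transcript itself. Ddit3 was 2.90-fold higher in TE in HF cells than in control cells (log2 1.53, SE 0.53, edgeR adjusted p = 0.043). Among the 7927 genes tested, 6.11% were called higher and 8.35% lower in TE. Nupr1 was at 0.98 (SE 0.39, edgeR adjusted p = 0.079) and Chac1 at 0.75 (SE 0.36, edgeR adjusted p = 0.17), and neither passed. Trib3 was at -0.11 (SE 0.47, edgeR adjusted p = 0.92), an estimate whose error leaves room for a change in either direction. The differences in TE change between these genes were not tested.

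The TE call of Ddit3 rested on few control counts, 18 in RNA and 24 in footprints over 3 libraries each. Leaving out any of 11 of the 12 libraries ended the call, the exception being RNA control 3. The estimate stayed between 1.16, without RNA control 1 (edgeR adjusted p = 0.29), and 1.75, without RPF control 1 (edgeR adjusted p = 0.052). The Nupr1 estimate passed without RNA HF 1 (1.17, edgeR adjusted p = 0.042) and was 0.59 without RNA control 2 (edgeR adjusted p = 0.42), the control library in which its RNA was high.

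**Figure D3:**
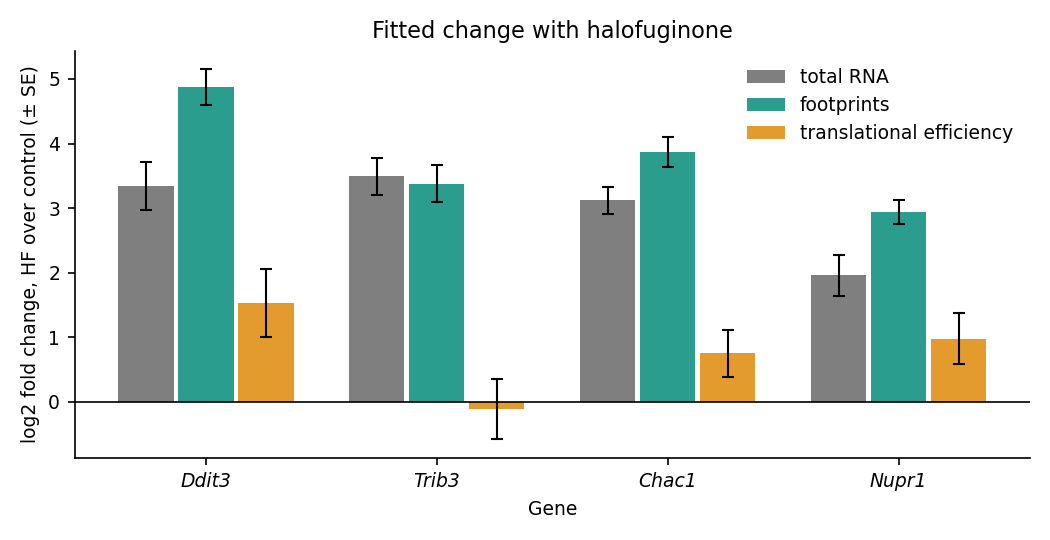
Fitted log2 fold changes, HF over control, of the 4 genes in total RNA, footprints and translational efficiency, with error bars of 1 SE. Ddit3 has the largest footprint change, 4.87, and Trib3 has RNA and footprint changes of 3.49 and 3.38 with a translational efficiency change of -0.11.

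**Figure D4:**
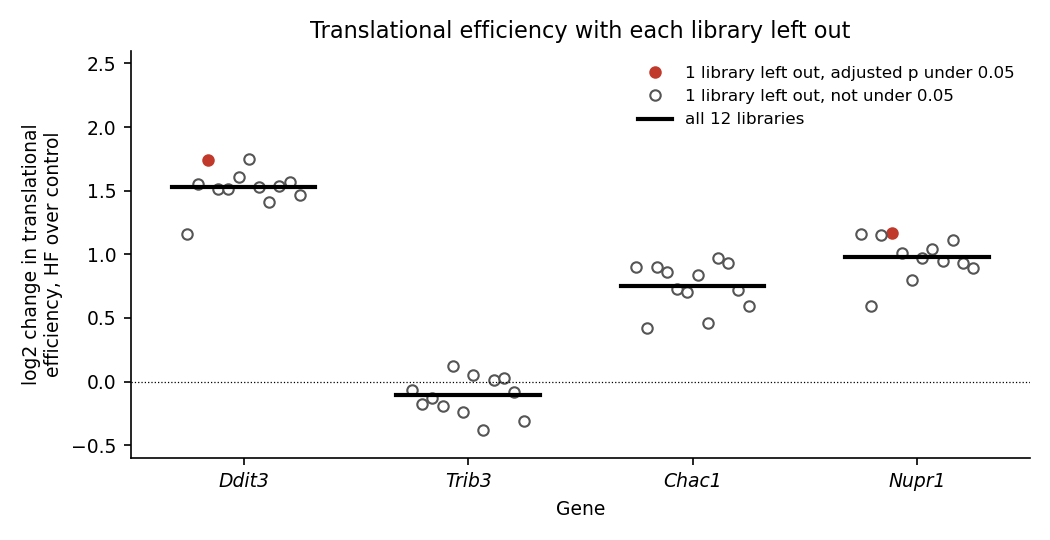
Log2 change in translational efficiency, HF over control, with all 12 libraries (bar) and with each library left out in turn (points, filled where the adjusted p was under 0.05). The Ddit3 estimates lie between 1.16 and 1.75 with 1 filled point, and the Trib3 estimates lie on both sides of 0, between -0.38 and 0.12.

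Footprints relative to RNA were also estimated within each condition. Each ratio was tested against 0 and not against the median gene, and that 0 depends on scaling each assay separately. In HF cells the log2 ratio was 0.85 for Ddit3 (SE 0.22, edgeR adjusted p = 8.9e-04) and 1.49 for Nupr1 (SE 0.21, edgeR adjusted p = 3.4e-08), where the median gene was at -0.25, and 55.8% of genes were called, 20.2% higher and 35.6% lower. Chac1 was at 0.12 and Trib3 at -0.41 in HF cells, and neither passed. In control cells the ratio was -0.68 for Ddit3 (edgeR adjusted p = 0.22), -0.30 for Trib3 (edgeR adjusted p = 0.54), -0.64 for Chac1 (edgeR adjusted p = 0.075) and 0.50 for Nupr1 (edgeR adjusted p = 0.16). The median gene there was at -0.27, and 57.9% of genes were called, 20.8% higher and 37.1% lower. These ratios also depend on how much of a transcript is coding, so they are not compared between genes.

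How closely the 4 genes followed each other varied by pair. Likeness was measured as the root mean square difference, over the 12 libraries, of log2 CPM after subtracting each gene's control mean in the same assay. Trib3 and Chac1 differed by 0.40, Ddit3 and Nupr1 by 1.14, and the other pairs by 0.68 to 0.84. Among 7908 well-counted protein-coding genes, Chac1 was the third nearest to Trib3, and Trib3 the second nearest to Chac1. Hist1h2bp, a replication-dependent histone whose near-identical copies make its count uncertain, was the nearest to both, at 0.24 from Trib3 and 0.34 from Chac1. The chemokine gene Cxcl10 was at 0.33 from Trib3 and Ptgs2, which encodes cyclooxygenase-2, at 0.41 from Chac1.

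Ddit3 had F3, which encodes tissue factor, as its nearest gene at 0.35, then the metallothionein Mt2 at 0.39. Nupr1 was nearest to the growth factor gene Ereg at 0.27, the histone H3.3 gene H3f3b at 0.28 and the autophagy receptor gene Sqstm1 at 0.30. The fitted changes in footprints and RNA were 4.19 and 3.36 for F3, and 2.82 and 2.11 for Sqstm1, a likeness to Ddit3 and Nupr1 that follows from how these genes were chosen. These are descriptions over 12 libraries of 4 groups, with no test.

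Of the relatives of the 4 genes, Trib2 was lower with HF, and Trib1 and Chac2 did not pass. Trib2, another Tribbles pseudokinase, had 5.28, 0 and 0 CPM in RNA of HF cells and 14.5, 36.7 and 21.0 CPM in RNA of control cells. It fell in RNA (-3.78, SE 0.73, edgeR adjusted p = 1.5e-05) and in footprints (-3.08, SE 0.80, edgeR adjusted p = 0.0023), on only 6 and 4 counts in HF cells, where control cells had 64 in each assay. Trib1 was at 0.39 in RNA (SE 0.18, edgeR adjusted p = 0.081) and 0.45 in footprints (SE 0.21, edgeR adjusted p = 0.082). Its call appeared in RNA without RNA control 2 (0.53, edgeR adjusted p = 0.030) and in footprints without RPF HF 1 (0.68, edgeR adjusted p = 0.019). Chac2, the constitutive counterpart of Chac1, was at 0.07 in RNA (SE 0.63, edgeR adjusted p = 0.94) on 34 counts in HF cells and 22 in control cells, and was not tested in footprints. Nupr1l, the paralog of Nupr1, had 0 counts in all 12 libraries.

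Upstream of CHOP, 5 of 10 tested genes rose in RNA and 3 of 10 in footprints, and the others did not pass (median log2 fold change 0.40 and 0.17). The shares called higher over all genes were 22.2% in RNA and 22.4% in footprints, so the footprint count was near the background. Atf4 averaged 840 ± 37.2 CPM in RNA of HF cells and 612 ± 45.0 CPM in RNA of control cells (SD, n = 3 each). Its footprints averaged 1186 ± 13.9 CPM in HF cells and 182 ± 4.61 CPM in control cells. The TE change of Atf4 was 2.25 (SE 0.13, edgeR adjusted p = 1.6e-19). Ppp1r15a, which encodes the eIF2 phosphatase subunit GADD34, rose by 2.66 in RNA and 3.92 in footprints. It was counted both in this list and among the genes linked to CHOP as targets. Its TE change was 1.27 (SE 0.34, edgeR adjusted p = 0.0075), a call that ended without RNA control 3 (0.97, edgeR adjusted p = 0.080) or RPF control 1 (0.97, edgeR adjusted p = 0.072). In TE 2 of the 10 listed genes rose and 2 fell (median log2 fold change 0.08). Over all genes, 6.11% were called higher and 8.35% lower in TE. Those that fell were Ppp1r15b (-0.88, edgeR adjusted p = 2.0e-04) and Gcn1l1 (-0.53, edgeR adjusted p = 0.027). The Gcn1l1 call ended without RNA HF 3, RPF control 1, RPF control 2 or RPF HF 1. Impact, an inhibitor of GCN2 activation, rose by 1.53 in RNA and 1.54 in footprints. The eIF2 kinase genes Eif2ak1, Eif2ak2, Eif2ak3 and Eif2ak4 did not pass in either assay.

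Of the 11 mRNAs listed for regulatory uORFs, Ddit3 among them, 10 were tested. In RNA 9 rose and 1 fell, in footprints 8 rose and 2 did not pass, and in TE 4 rose and 2 fell. The list's median log2 fold change was 1.40 in RNA, 1.74 in footprints and 0.36 in TE. Over all genes, 22.2% were called higher and 21.4% lower in RNA, and 22.4% and 20.9% in footprints. The share of genes called was 14.5% in TE over all 7927 genes, 6.11% higher and 8.35% lower. The count of 4 was 2 without any 1 of 9 of the 12 libraries (RNA control 1 and 2, RNA HF 1 and 3, RPF control 1, 2 and 3, and RPF HF 2 and 3) and 3 without any 1 of the others. The 4 that rose in TE were Atf4, Ddit3, Ppp1r15a and Cebpb, and the 2 that fell were Ppp1r15b (-0.88) and Eprs (-0.59). Ifrd1, a transcriptional coregulator gene, rose by 2.00 in RNA and 1.93 in footprints.

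CHOP dimerises with C/EBP proteins, and 3 of 5 C/EBP genes could be tested. Of these, 2 rose in RNA and 3 in footprints (median log2 fold change 1.53 and 1.90). The shares called higher over all genes were 22.2% in RNA and 22.4% in footprints, with a median of -0.02 in each assay. Cebpg rose by 1.85 in RNA and 1.90 in footprints. Cebpb rose by 1.53 in RNA and 2.27 in footprints, with a TE change of 0.75 (SE 0.25, edgeR adjusted p = 0.033). That TE call ended when any 1 of 8 of the 12 libraries was left out, and was weakest without RNA control 2 (0.63, edgeR adjusted p = 0.11). Cebpd rose in footprints (1.11, SE 0.27, edgeR adjusted p = 0.0014) and was at 0.52 in RNA (edgeR adjusted p = 0.21). Cebpa had 6 counts in RNA and 0 in footprints, and Cebpe had 0.

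Among genes linked to CHOP as targets, 3 of 7 tested rose in RNA and 1 fell, and 3 of 5 rose in footprints (median log2 fold change 0.83 and 0.85, against -0.02 over all genes in each assay). Over all genes, 22.2% were called higher and 21.4% lower in RNA, and 22.4% were called higher in footprints. Besides Ppp1r15a, the targets that rose were the bZIP factor Atf5 (1.49 in RNA, 1.56 in footprints) and the death receptor gene Tnfrsf10b (0.83 and 0.85). Tnfrsf10b averaged 114 ± 22.7 CPM in RNA of HF cells and 64.6 ± 13.6 CPM in RNA of control cells. The proapoptotic gene Bcl2l11, which encodes BIM, fell in RNA (-1.22, SE 0.40, edgeR adjusted p = 0.0097), a call that ended without RNA HF 3 (-1.02, edgeR adjusted p = 0.063). Bbc3, which encodes PUMA, was at 1.07 (edgeR adjusted p = 0.088), and the antiapoptotic Bcl2 at 0.15. The oxidase gene Ero1l was at -0.29 in RNA and 0.43 in footprints, and passed in neither.

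Other stress targets of ATF4 had 4 of 6 tested genes higher and 1 lower in RNA, and 4 higher and 2 lower in footprints (median log2 fold change 1.78 and 1.54). Over all genes, 22.2% were called higher and 21.4% lower in RNA, and 22.4% and 20.9% in footprints. The counts called lower were thus near the background. The 2 lower in footprints were 1 without RPF control 3, RPF HF 1 or RPF HF 3. Atf3, a bZIP repressor, rose by 4.32 in RNA and 4.52 in footprints. Sesn2, a stress sensor that restrains mTORC1, rose by 2.55 in RNA, while Ddit4, another mTORC1 inhibitor, fell by 1.62 in RNA and by 1.10 in footprints. Fgf21 and Gdf15, both secreted stress factors, had 0 counts in RNA and 4 counts each in footprints of HF cells.

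Partners of the TRIB3 protein included transcripts that moved against Trib3. Akt1, which encodes a kinase that TRIB3 binds, had 108, 115 and 131 CPM in RNA of HF cells and 470, 509 and 445 CPM in RNA of control cells. Its groups did not overlap, and it fell by 1.99 in RNA (SE 0.12, edgeR adjusted p = 1.3e-22) and changed by -2.20 in footprints (SE 0.30, edgeR adjusted p = 3.5e-07). Akt2 was at -0.94 in RNA (edgeR adjusted p = 0.0050), a call that ended without RNA HF 3 (-0.68, edgeR adjusted p = 0.074), and had 7 footprint counts in HF cells and 88 in control cells. In all, 1 of 6 tested partners rose in RNA and 3 fell, and 1 of 5 rose and 3 fell in footprints (median log2 fold change -0.16 and -1.09). Over all genes, 22.2% were called higher and 21.4% lower in RNA, and 22.4% and 20.9% in footprints. The number that fell was 1 in RNA without RNA HF 3. It was also 1 in footprints without RPF control 2, where the Acaca call ended (edgeR adjusted p = 0.077) and Akt2 did not pass the count filter. The third to fall was Acaca, which encodes acetyl-CoA carboxylase (-0.58 in RNA, edgeR adjusted p = 0.027; -0.50 in footprints, edgeR adjusted p = 0.030), with calls that DESeq2 did not make (adjusted p = 0.058 and 0.068). The Acaca call in RNA also ended without RNA control 2 (edgeR adjusted p = 0.13), RNA control 3, RNA HF 1 or RNA HF 3 and with no filter. In footprints it ended without RPF control 1 (edgeR adjusted p = 0.19), RPF control 2, RPF HF 1 or RPF HF 2. The riser was Sqstm1, at 2.11 in RNA and 2.82 in footprints.

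Glutathione is the substrate of CHAC1, and of the 10 genes listed for its synthesis, reduction and breakdown 8 were tested in each assay. In RNA 1 rose and 2 fell, and in footprints 2 rose and 2 fell (median log2 fold change -0.35 and 0.05). Over all genes, 22.2% were called higher and 21.4% lower in RNA, and 22.4% and 20.9% in footprints. The counts for this list were thus not far from the background. Gsr, which encodes glutathione reductase, fell by 1.25 in RNA (SE 0.19, edgeR adjusted p = 6.1e-08) and by 1.72 in footprints. The subunits of the rate-limiting synthesis enzyme, Gclc and Gclm, were at -0.38 and -0.40 in RNA and did not pass. In footprints Gclm passed (-0.65, edgeR adjusted p = 0.017), but not without RPF control 2 (edgeR adjusted p = 0.11) or RPF HF 2 (edgeR adjusted p = 0.094). Of the glutathione peroxidase genes, Gpx1 fell by 0.56 in RNA and was at 0.13 in footprints (edgeR adjusted p = 0.47). Its TE change was 0.70 (edgeR adjusted p = 0.01), a call that ended without RNA control 2, RNA HF 3 or RPF HF 2. Gpx4 was at 0.93 in footprints (edgeR adjusted p = 0.032), a call that DESeq2 did not make (adjusted p = 0.051). The Gpx4 call also ended without any 1 of 5 of the 6 footprint libraries, the exception being RPF HF 1. The cystine transporter Slc7a11 had 72 RNA counts in HF cells and 2 in control cells, and its footprints rose by 2.38 (SE 0.43, edgeR adjusted p = 3.1e-05). Of 4 genes for NUPR1 partner proteins, 1 rose and 1 fell in each assay (median log2 fold change -0.03 in RNA and -0.52 in footprints). Ptma, which encodes prothymosin alpha, fell by 0.89 in RNA and by 1.40 in footprints. Ep300, an acetyltransferase gene, was at 0.44 in RNA and 0.43 in footprints. Its RNA call (edgeR adjusted p = 0.017) ended without RNA control 1 (edgeR adjusted p = 0.065), RNA control 3 (edgeR adjusted p = 0.11) or RNA HF 2 (edgeR adjusted p = 0.057). Its footprint call (edgeR adjusted p = 0.048) ended without RPF HF 1 (0.23, edgeR adjusted p = 0.40) and without RPF control 1, 2 or 3 or RPF HF 2. DESeq2 did not make that footprint call (adjusted p = 0.12). It also ended with upper-quartile factors (edgeR adjusted p = 0.11) and with all genes tested in footprints (edgeR adjusted p = 0.062). The single riser and the single faller of 4 were near the background shares.

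**Figure D5:**
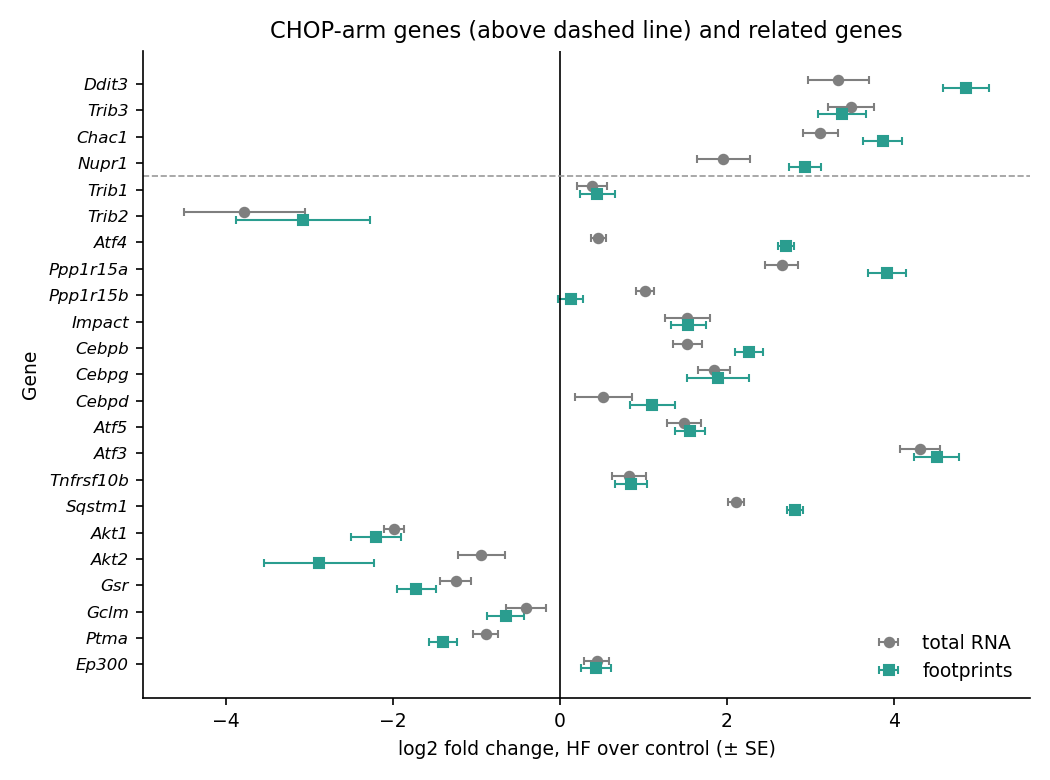
Fitted log2 fold changes, HF over control, in total RNA (circles) and footprints (squares), with error bars of 1 SE, for the 4 CHOP-arm genes and related genes. Trib2, Akt1 and Gsr lie left of 0 in both assays, while Atf4 has a footprint change of 2.71 beside an RNA change of 0.46.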

How the data were processed

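Total RNA and ribosome footprints of MEF with or without HF were measured in 12 libraries, 3 per group, grouped by title. Alkaline hydrolysis fragmented the total RNA, and footprints came from RNase I digestion and the monosome peak of a sucrose gradient, per the labels' protocols. The authors deposited whole-number counts of reads per Ensembl gene, with no normalization. The tools were HISAT2, Bowtie and HTSeq, with build GRCm38, per the submitters' processing notes. The counted feature, strand setting and multi-mapping rule were not given in the sources used here.

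Symbols came from the ID table (55450 of 55536 IDs) and gene types from RefSeq (21412 protein-coding IDs). There were 0 entries that name no gene. Low counts were mostly even, for example 1541 genes with 2 counts and 419 with 1 in RNA control 1, so halved counts were tried. Tests used R 4.3.3 and edgeR 4.0.16 (quasi-likelihood, TMM factors, filterByExpr minimum count 10, Benjamini-Hochberg threshold 0.05): RNA over all genes, footprints over protein-coding genes, and TE as the interaction in a model of 12 libraries. The SE is the absolute log2 fold change over the square root of F. CPM were scaled with TMM factors to all genes in RNA and to protein-coding genes in footprints. The methods were tested on simulated data. Those simulated counts lacked the excess of even values seen in the deposited counts, so that test does not cover this feature. Replicates had a chi-square per degree of freedom of 2.26 to 4.45 on deposited counts. Mostly even counts raise this value, and on halved counts it was 1.13 to 2.22, with a largest p of 4.2e-17, still beyond sampling noise. The halved chi-square and the marker sum without Fn1 were chosen after seeing the data. All values are relative to the bulk of genes, and no spike-in is described.

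Alternatives were relative log expression and upper-quartile factors, no filter, DESeq2 1.42.0, a replicate block, halved counts, all genes in footprints and each library left out. Named genes were the 4 members, Atf4, Ppp1r15a, Trib1, Trib2, Chac2 and Cebpb and up to 4 called genes with the largest change per list. Genes named without passing or by their counts alone, and Eprs in TE and Col1a2 in RNA, which passed, were added after their values were seen. The members and lists were chosen with earlier results of these data known, and lists share members. Likeness used a prior count of 2 and genes whose mean log2 CPM reached 3. Promoters came from the RefSeq table of GRCm38.p6, which held all 4 genes. Values of some further genes are not reported here.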

Additional observations from a re-analysis of the deposited data

How the results depend on the processing

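The number of genes called changed by less than 1.5 times under every alternative, from 3992 in RNA to between 3361 and 4032, from 3625 in footprints to between 2917 and 3751, and from 1146 in TE to between 888 and 1209. The RNA and footprint changes of the 4 genes kept their direction and call in 48 of 48 and 52 of 52 recomputed values, and their TE changes in 53 of 72. For Ddit3, the only gene of the 4 called in TE, the call ended in 14 of 18 alternatives. The Ddit3 TE change did not pass with no filter (1.49, edgeR adjusted p = 0.083) or with halved counts (1.50, edgeR adjusted p = 0.11), and it ranged from 1.16 to 1.75 with 1 library left out. The cause was not tested.

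Libraries with the same number were not shown to be paired, as their deviations from the group means correlated at -0.03 to 0.02, and 1 of 3 libraries in each assay correlated best with its own number. With the number as a replicate block, 3933 genes were called in RNA, 3549 in footprints and 1087 in TE, and the Ddit3 TE change was 1.52 (edgeR adjusted p = 0.053). Under that block the TE calls of the other 3 genes did not change.

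With 1 library left out, the Trib3 TE change ranged from -0.38 to 0.12, being 0.12 without RNA HF 2, 0.05 without RPF control 1, 0.01 without RPF control 3 and 0.03 without RPF HF 1. That of Nupr1 ranged from 0.59 to 1.17. Footprints over RNA of Chac1 ranged from -0.03 (without RPF HF 3) to 0.30 in HF cells and from -0.85 (without RPF control 3, edgeR adjusted p = 0.021) to -0.31 in control cells. Those of Trib3 in HF cells ranged from -0.59 (without RPF HF 3, edgeR adjusted p = 0.035) to -0.19, and were -0.47 with halved counts (edgeR adjusted p = 0.021). Those of Nupr1 in control cells ranged from 0.33 to 0.90 (without RNA control 2, edgeR adjusted p = 0.026). The Chac2 RNA change was 0.00 in DESeq2 and ranged from -0.32 to 0.87, the Trib1 TE change was 0.00 with halved counts and ranged from -0.09 to 0.30, and that of Trib2, on 6 RNA counts and 4 footprint counts in HF cells, ranged from -0.02 to 4.99. Of 1032 recomputed list counts, 114 moved by over 1.5 times. Control counts of 18 to 136 per gene and assay limit the precision of the TE estimates.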
